A study of Mus musculus with 65 samples.

Results

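The 6 genes described here encode actin itself and small proteins that bind it: the cytoplasmic actins Actb and Actg1, the beta-thymosins Tmsb4x and Tmsb10, and the transgelins Tagln2 and Tagln3. They were chosen by symbol, all 6 were present among the 11971 genes of the deposited read counts, and their levels are given over all 65 cells of the series. The cells were cortical cells of E13.5 embryos of the mouse strain C57BL/6J, with no treatment or engineered allele named in the labels, and were pooled across the embryos before single live cells were sorted. Full-length cDNA libraries of polyadenylated RNA were sequenced. Molecular identifiers were not used, and reads therefore do not count separate molecules. Because no animal is named, the 65 cells are 1 sample, and every value below describes these cells without a test. The genes were chosen with earlier results of these cells known, so that their levels and correlations are descriptions only.

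Actin monomers assemble into filaments that give a cell its shape, drive the growth cone of a young neuron and form the contractile belt at the ventricular surface of progenitors. Beta-thymosins hold actin monomers in reserve and so keep a pool that filaments can draw on. Transgelins belong to the calponin family and bind along filaments. Tagln3 is known from neurons, whereas Tagln2 is known from many cell types outside muscle.

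The labels call every cell a neural progenitor, and the markers did not bear this out for all of them. Levels are given as CPM, a gene's reads per 1000000 reads of the cell, and a gene was counted as present in a cell at 10 CPM or more. Neurod6, a transcription factor of young excitatory neurons, was present in 16 cells, called Neurod6 cells here. Sox2, a transcription factor of neural progenitors, was present in 22 others, called Sox2 cells, and no cell had both. Of the remaining cells, 7 had at least 3 of 11 interneuron and ventral markers (ventral-marker cells), and 20 had neither pattern (other cells). Among the Sox2 cells, 3 also had at least 3 of the ventral markers. The titles part the cells into sets 1, 2 and 3 with 31, 13 and 21 cells, which the labels do not explain and which were treated as possible batches. Sets 1, 2 and 3 held 11, 2 and 3 of the Neurod6 cells and 9, 6 and 7 of the Sox2 cells. Total reads per cell ranged between 85338 and 32130629 with a median of 14609426, and 3 cells had fewer than 1000000. The class medians were 13317944 reads in Neurod6 cells and 16551627 in Sox2 cells.

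The promoters of 3 members are shown because their genes were among those that were higher together in the Neurod6 cells, and because Actg1 alone of the members matched held the motif of serum response factor (SRF), a regulator of actin genes. They are RefSeq sequences of the mouse build GRCm38.p6, whereas the submitters' processing notes name mm9 for the counts. Each reads 5′ to 3′ on the gene's strand and covers the bases before the gene's start that lie outside annotated transcripts. The capitals in Actg1 mark the SRF motif, the CArG box.
Actg1 chr11:120348543-120348745, minus strand: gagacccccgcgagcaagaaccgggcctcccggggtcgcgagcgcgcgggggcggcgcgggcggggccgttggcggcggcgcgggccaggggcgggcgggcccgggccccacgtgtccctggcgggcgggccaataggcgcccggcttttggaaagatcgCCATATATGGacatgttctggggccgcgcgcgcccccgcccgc
Tmsb10 chr6:72958749-72958998, minus strand: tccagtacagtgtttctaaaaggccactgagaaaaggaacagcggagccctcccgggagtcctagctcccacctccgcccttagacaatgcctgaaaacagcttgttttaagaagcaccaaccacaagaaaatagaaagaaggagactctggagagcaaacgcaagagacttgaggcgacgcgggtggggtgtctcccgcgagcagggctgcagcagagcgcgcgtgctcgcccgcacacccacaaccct
Tagln3 chr16:45724609-45724781, minus strand: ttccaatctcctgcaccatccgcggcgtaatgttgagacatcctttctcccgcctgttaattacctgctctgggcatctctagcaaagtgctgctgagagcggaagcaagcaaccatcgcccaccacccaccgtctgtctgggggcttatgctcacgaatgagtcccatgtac

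RefSeq promoter entries were matched for 5 of the 6 genes: Actg1, Tmsb4x on chromosome X, Tmsb10, Tagln2 on chromosome 1 and Tagln3. The motifs were searched on both strands in the 250 bases before each start. The CArG box was found in Actg1, where it ended 80 bases before the start, and in none of the other 4 matched members. It was present in 1.47% of 32851 promoters of the same length. TATAAA was found in none of the 5 genes, against 12.4% of all promoters. CCGCCC, the core of the motif of the Sp factors, was found in Actg1, Tmsb4x, Tmsb10 and Tagln2 but not in Tagln3, against 32.7% of all promoters. CANNTG, the E-box that proneural factors bind, was found in Actg1, Tmsb4x and the most downstream of the 3 Tmsb10 starts, against 66.2% of all promoters. These matches describe the letters only.

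Not every read of these genes can be assigned with certainty. In the longest coding transcripts of GENCODE vM21, 1.60% of the 50-base stretches of Actb were shared with Actg1 and 1.58% of those of Actg1 with Actb. Neither the thymosin pair nor the transgelin pair shared any. However, 56.7% of the stretches of Actg1 and 43.5% of those of Tmsb10 occurred in some other annotated gene. For Actg1 the largest overlap was 51.1% with Gm12715, and for Tmsb10 it was 33.2% with Gm9844, and neither of these genes is in the count table. For Actb the share was 14.2%, for Tagln2 it was 0.781%, and for Tmsb4x and Tagln3 it was 0. Depending on how reads with several matches were counted, the levels of Actg1 and Tmsb10 may therefore be too low or too high.

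Together the 6 genes took a median of 3.29% of all reads in Neurod6 cells (1.78% to 5.04%), 2.17% in ventral-marker cells, 1.63% in other cells and 1.22% in Sox2 cells (0.503% to 2.62%). Levels were also read per kilobase of transcript, which allows for length but not for reads shared with other genes. The median over all cells was 5025 CPM per kilobase for Actb, 3013 for Tmsb4x, 1933 for Actg1, 1273 for Tmsb10, 423 for Tagln3 and 0 for Tagln2. The places of Actg1 and Tmsb10 in this order are uncertain, because large parts of both occur in other genes. Actb, Actg1, Tmsb4x and Tmsb10 were present in all 65 cells. Tagln3 was present in 47 cells and Tagln2 in 3.

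Actb, which encodes beta-actin, was highest in the Neurod6 cells. It ranged between 6936 and 26738 CPM with a median of 16251 in Neurod6 cells, and between 8094 and 19914 with a median of 14417 in ventral-marker cells. It ranged between 339 and 19245 CPM with a median of 7311 in other cells, and between 1209 and 13517 with a median of 6040 in Sox2 cells. All 16 Neurod6 cells lay above the Sox2 median and 11 lay above the highest Sox2 cell, while the ranges still overlapped. The mean was 17348 ± 5619 CPM in Neurod6 cells and 7338 ± 3623 CPM in Sox2 cells (SD across cells, n = 16 and 22), a ratio of 2.36.

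Actg1, which encodes gamma-actin, had the same order of classes. It ranged between 2982 and 12855 CPM with a median of 8993 in Neurod6 cells, between 359 and 9274 with a median of 5762 in ventral-marker cells, between 40.6 and 30107 with a median of 3977 in other cells, and between 1172 and 5218 with a median of 2621 in Sox2 cells. Of the 16 Neurod6 cells 13 lay above the highest Sox2 cell, and no Sox2 cell reached the Neurod6 median. The mean was 8542 ± 3063 CPM in Neurod6 cells and 2678 ± 964 CPM in Sox2 cells, a ratio of 3.19.

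Tmsb4x, which encodes thymosin beta-4, the main monomer-sequestering protein of many cells, overlapped more widely. It ranged between 1909 and 12666 CPM with a median of 5171 in Neurod6 cells, between 1728 and 5429 with a median of 2496 in ventral-marker cells, between 236 and 19298 with a median of 3203 in other cells, and between 394 and 9796 with a median of 1808 in Sox2 cells. Although all 16 Neurod6 cells exceeded the Sox2 median, only 3 exceeded the highest Sox2 cell. The mean was 5939 ± 3335 CPM in Neurod6 cells and 2687 ± 2701 CPM in Sox2 cells, a ratio of 2.21.

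Tmsb10, which encodes the related thymosin beta-10, ranged between 193 and 4810 CPM with a median of 1337 in Neurod6 cells, between 518 and 2553 with a median of 1170 in ventral-marker cells, between 133 and 5995 with a median of 961 in other cells, and between 105 and 1902 with a median of 508 in Sox2 cells. Of the 16 Neurod6 cells 15 lay above the Sox2 median and 5 above the highest Sox2 cell. The mean was 1610 ± 1061 CPM in Neurod6 cells and 554 ± 384 CPM in Sox2 cells, a ratio of 2.91.

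Tagln3, unlike the actins and thymosins, was absent from a large share of the Sox2 cells. It was present in 15 of 16 Neurod6 cells, 6 of 7 ventral-marker cells, 15 of 20 other cells and 11 of 22 Sox2 cells. It ranged between 0 and 3313 CPM with a median of 1363 in Neurod6 cells, between 8.35 and 2637 with a median of 958 in ventral-marker cells, between 0.197 and 4910 with a median of 663 in other cells, and between 0.0383 and 1403 with a median of 12.4 in Sox2 cells. The Sox2 cells ranged from almost no reads to levels within the Neurod6 range, and 1 Neurod6 cell of set 1 had no read. The mean was 1514 ± 996 CPM in Neurod6 cells and 224 ± 397 CPM in Sox2 cells, a ratio of 6.75.

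In the order of class medians, from Neurod6 through ventral-marker and other to Sox2 cells, with other cells above ventral-marker cells for Tmsb4x, most neighbours differed by less than the larger SD of both classes. Among these 5 genes the exceptions were Actb between ventral-marker and other cells, and Actg1 between Neurod6 and ventral-marker cells.

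Tagln2 was close to unmeasured in this tissue sample. It had no read in 35 cells and 1 to 3 reads in 21 more. Pooled reads came to 0.148 CPM in Neurod6 cells (95% exact Poisson interval 0.101 to 0.210) and 15.5 CPM in Sox2 cells (15.1 to 15.9), intervals that cover counting error only. It was present at 10 CPM in 0 of 16 Neurod6 cells, which by the exact Clopper-Pearson interval allows a share of up to 20.6%, and in 2 of 22 Sox2 cells. The 3 cells that held it had 567 CPM (an other cell of set 1), 155 CPM and 25.1 CPM (both Sox2 cells of set 3). The cell at 567 CPM also had 116 CPM of the endothelial gene Esam, and the cell at 155 CPM had 100 CPM of the meningeal gene Lum, while their microglial marker sums were 0.0943 and 4.01 CPM. The part of another cell's RNA in these 3 values was not tested.

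**Figure D1:**
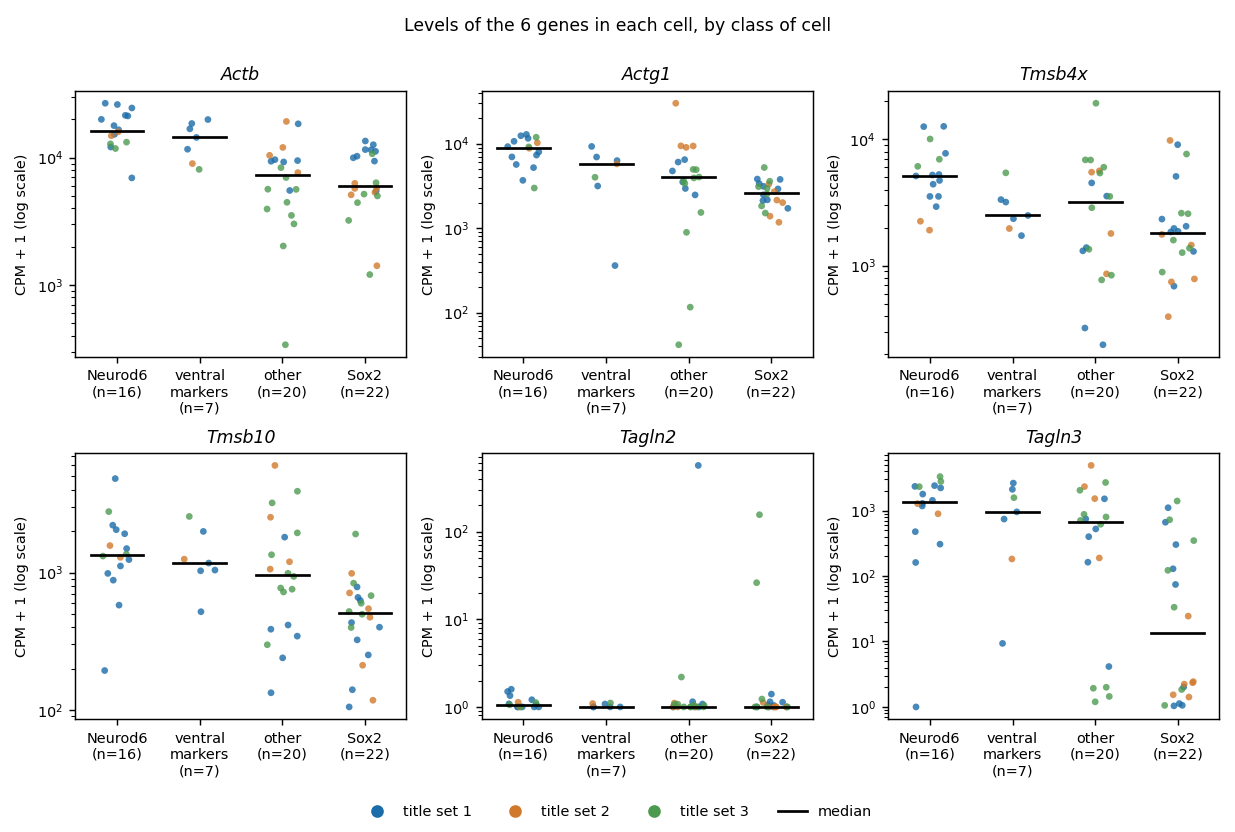
Level of each of the 6 genes in every cell as CPM + 1 on a log scale, with 1 point per cell coloured by title set and a bar at the median of the class. Neurod6 cells are at the left and Sox2 cells at the right; Actb, Actg1, Tmsb4x, Tmsb10 and Tagln3 had their highest class median in the Neurod6 cells, and Tagln2 exceeded 10 CPM in 3 cells.

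To set the 6 genes beside the whole table, the log2 ratio of mean CPM + 10 was taken in Neurod6 over Sox2 cells for the 8377 genes with a mean of 10 CPM or more. Of all these genes 18.9% were at least 2-fold higher and 25.1% at least 2-fold lower in Neurod6 cells, and the median gene stood at -0.15. Of the 6 members 5 were at least 2-fold higher and none was 2-fold lower, and since the members were chosen with such values known, nothing is read from this count. The log2 ratio was 1.24 for Actb, 1.67 for Actg1, 1.14 for Tmsb4x, 1.52 for Tmsb10, 2.70 for Tagln3 and -0.85 for Tagln2. Tagln2 passed the mean filter through 1 cell alone, its Sox2 mean rests on 2 cells, and with a pseudocount of 1 CPM it stood at -3.03. Of the tested genes 85.0% had a lower ratio than Actb, 90.6% than Actg1, 83.5% than Tmsb4x, 88.9% than Tmsb10 and 97.8% than Tagln3. Leaving out the 3 Sox2 cells with ventral markers gave 1.30 for Actb, 1.73 for Actg1, 1.21 for Tmsb4x, 1.78 for Tmsb10 and 2.72 for Tagln3.

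Within title sets 1, 2 and 3 the log2 ratio was 0.84, 1.64 and 1.29 for Actb, and 1.59, 2.16 and 1.43 for Actg1. It was 1.92, 1.48 and 1.22 for Tmsb10, and 2.25, 6.22 and 2.87 for Tagln3. These 4 genes were thus higher in the Neurod6 cells of every set. For Tmsb4x it was 1.08, -0.26 and 1.58, so that the direction turned in set 2. The 2 Neurod6 cells of set 2 had 1909 and 2246 CPM of Tmsb4x, and 1 Sox2 cell there had 9796 CPM from a library of only 85338 reads. Without the Sox2 cells under 1000000 reads, the Tmsb4x ratio in set 2 was 1.01, and the highest remaining Sox2 cell had 1767 CPM. As a difference of mean log2(CPM + 1) over all cells of set 2, which weighs a single high cell less, Tmsb4x stood at 0.63.

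Markers of other lineages were also set beside the classes. The summed microglia and macrophage markers (8 of 12 measured) ranged between 0 and 15.3 CPM in Neurod6 cells and between 0 and 93.7 in Sox2 cells, with 1 of the 8 genes at 10 CPM in any Neurod6 cell and 2 in any Sox2 cell. The endothelial markers (2 of 8 measured) reached 0.128 CPM in Neurod6 cells and 175 in Sox2 cells, and the mural and meningeal markers (7 of 10 measured, Acta2 at 0 in the cell where they were highest) reached 51.5 CPM in Neurod6 cells and 143 in Sox2 cells. The erythroid markers (5 of 7 measured) had a median of 36.7 CPM in Neurod6 cells and 462 in Sox2 cells. Over all 65 cells Spearman's rho with their sum was -0.520 for Actb and -0.318 for Actg1. It was 0.129 for Tmsb4x, 0.141 for Tmsb10, -0.0123 for Tagln2 and -0.00984 for Tagln3. The Cajal-Retzius markers (7 of 7 measured), which mark early neurons of the cortical surface, had a median of 44.7 CPM in Neurod6 cells (0 to 8691, with 11 of 16 cells at 10 CPM or more) and 0.182 in Sox2 cells (0 to 327). The Neurod6 cell at 8691 CPM had 12413 CPM of Actg1, the third highest level of that gene. The part of these markers in the differences of the 6 genes was not tested.

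The level of Actb also moved with the title set. Its median was 12638 CPM in set 1, 7634 in set 2 and 5175 in set 3. Among Neurod6 cells the medians were 19980 CPM in set 1, 15413 in set 2 and 12839 in set 3, with 14870 and 15956 CPM in the 2 cells of set 2 and 11799, 12839 and 13244 CPM in the 3 cells of set 3. Among Sox2 cells they were 11222, 5543 and 5006 CPM in sets 1, 2 and 3. Set 1 was therefore highest in both classes, so that Sox2 cells of set 1 overlapped with the Neurod6 cells of set 3.

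Actg1 did not follow this order. Its medians in Neurod6 cells were 7985, 9540 and 9154 CPM in sets 1, 2 and 3, and those in Sox2 cells were 2910, 2074 and 2966 CPM. Actb accordingly took a median of 72.6% of the reads of both actins in set 1, 64.4% in set 2 and 59% in set 3. By class the median was 66.5% in Neurod6 cells (51.9% to 85.3%), 70.8% in ventral-marker cells, 61.6% in other cells and 72.4% in Sox2 cells (39.8% to 85.7%). Actb had more reads than Actg1 in 62 of the 65 cells, from transcripts of 1920 bases for Actb and 1952 for Actg1. Tmsb4x took a median of 78.8% of the reads of both thymosins in Neurod6 cells and 80.1% in Sox2 cells. It had more reads than Tmsb10 in 58 cells, from transcripts of 864 bases for Tmsb4x and 690 for Tmsb10. The shares and cell counts of both pairs depend on how reads shared with other genes were counted, which concerns Actg1 and Tmsb10 most.

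**Figure D2:**
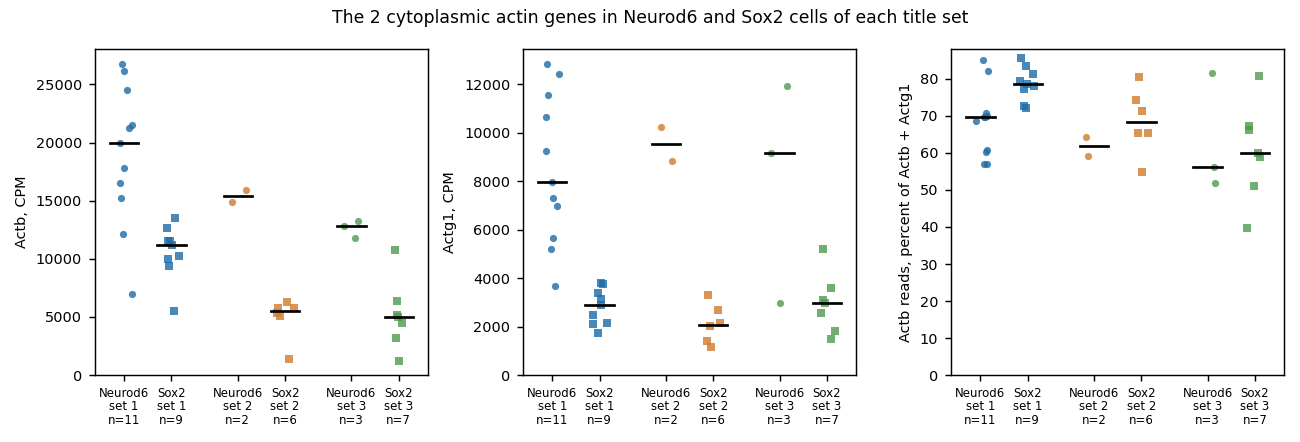
Actb CPM, Actg1 CPM and the percent of both actins' reads that were Actb, with 1 point per Neurod6 cell (circles) or Sox2 cell (squares) of each title set and a bar at the median. The Actb medians were highest in set 1 for both classes (19980 CPM in Neurod6 cells and 11222 CPM in Sox2 cells), while the Actg1 medians were not.

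Since a single marker gene gives a coarse division, the cells were also placed along a score: the mean log2(CPM + 1) of 16 neuron markers minus that of 15 apical progenitor markers, which contain none of the 6 genes. Spearman's rho with this score over the 65 cells was 0.776 for Tmsb10, 0.738 for Tagln3, 0.668 for Actg1, 0.566 for Actb, 0.545 for Tmsb4x and -0.0524 for Tagln2. Of all 8377 genes 1.09% reached a rho of 0.5, and 5 of the 6 members did. Only 4 genes, Tmsb10 among them, had a rho at or above that of Tmsb10. The others were Stmn2, Dcx and Stmn3, which are neuron markers of the score and so part of it. Apart from Tagln3 itself, 5 genes lay above Tagln3: these same genes with Tmsb10, and Tuba1a. Against the neuron markers alone rho was 0.721 for Actb, 0.714 for Tagln3, 0.681 for Actg1, 0.657 for Tmsb10 and 0.528 for Tmsb4x. Against the progenitor markers alone it was -0.715 for Tmsb10, -0.610 for Tagln3, -0.594 for Actg1, -0.455 for Tmsb4x and -0.392 for Actb. The order of the genes thus differed between these marker lists. The members were chosen with such values known, and the cells may share batches within title sets and differ in depth, so that these values describe this set of cells.

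The score was correlated at -0.341 with total reads per cell. With total reads rho was -0.313 for Actb, -0.318 for Actg1, 0.0725 for Tmsb4x, -0.172 for Tmsb10 and -0.0257 for Tagln3. Within title sets 1, 2 and 3 rho with the score was 0.859, 0.830 and 0.699 for Tmsb10, 0.729, 0.912 and 0.730 for Tagln3, and 0.668, 0.802 and 0.634 for Actg1. It was 0.706, 0.681 and 0.619 for Actb and 0.563, 0.505 and 0.764 for Tmsb4x. For Actb each of the 3 values exceeded the pooled one.

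Divided by score into the 22 lowest, 21 middle and 22 highest cells, the genes differed in where along the score they were higher. Median Actb was 5591, 9647 and 15060 CPM from low to high. Median Actg1 was 3031, 3151 and 9097 CPM, so that the lowest and middle cells were alike and the highest cells stood apart. Median Tmsb4x was 1382, 4412 and 5171 CPM, with most of the difference between the lowest and the middle cells. Median Tmsb10 was 484, 770 and 1687 CPM. Tagln3 was present in 10, 15 and all 22 of these cells, with medians of 2.29, 524 and 1918 CPM.

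The relation was also taken inside the classes. Among the 16 Neurod6 cells rho with the score was 0.768 for Tmsb10, 0.647 for Actg1, 0.488 for Actb, 0.476 for Tagln3 and 0.165 for Tmsb4x. Among the 20 other cells it was 0.722 for Tmsb10, 0.454 for Actg1, 0.427 for Actb, 0.750 for Tagln3 and 0.409 for Tmsb4x. Tagln3 in other cells thus ran with the score as closely as over all cells. However, this class mixed cells of low and high score, between -4.67 and 6.33, and its neuron marker sums ranged between 4.54 and 15811 CPM. Among the 22 Sox2 cells it was 0.260 for Tmsb10, -0.257 for Actg1, -0.0322 for Actb, 0.191 for Tagln3 and 0.368 for Tmsb4x. Sox2 is itself 1 of the progenitor markers of the score. Against the neuron markers alone the Sox2 cells gave 0.465 for Tmsb4x, 0.432 for Actb, 0.315 for Tmsb10, 0.231 for Tagln3 and -0.0480 for Actg1.

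**Figure D3:**
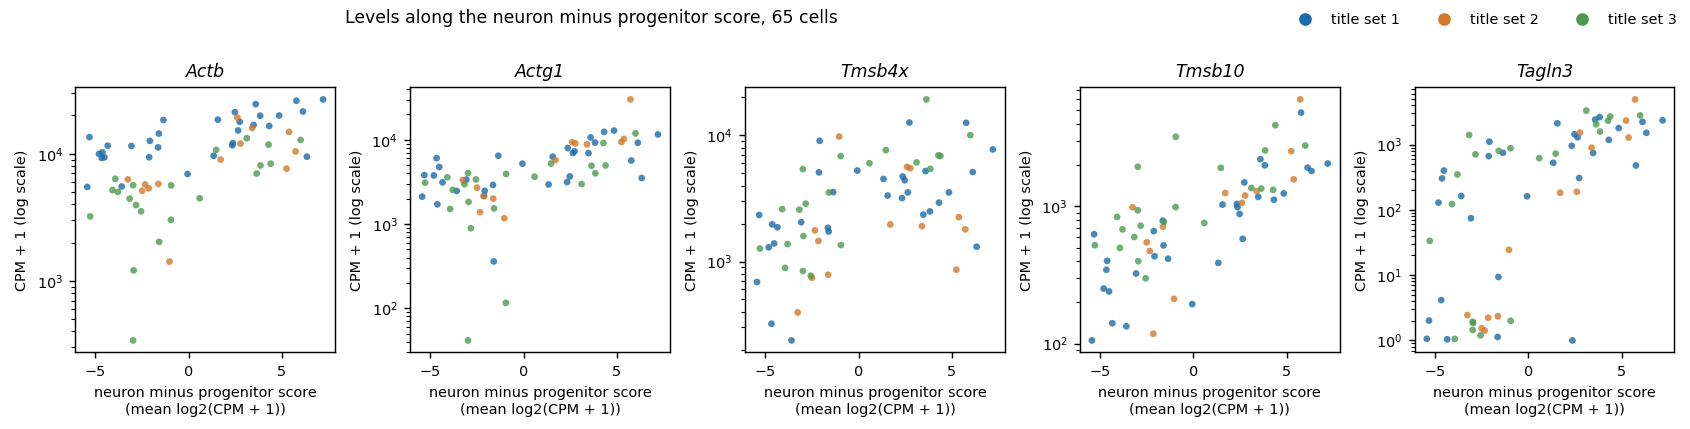
Level of 5 of the genes (CPM + 1, log scale) in each of the 65 cells against the neuron minus progenitor score in mean log2(CPM + 1), coloured by title set. Tmsb10 (rho = 0.776) and Tagln3 (0.738) followed the score most closely, while Actb had the highest rho with the neuron markers alone (0.721). Many cells of low score had almost no Tagln3.

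Among themselves the 5 genes measured in most cells were positively correlated over all cells. The 10 pairs had a rho between 0.268 and 0.680 with a median of 0.495. The closest pair was Actb with Actg1 (0.680), followed by Tmsb10 with Tagln3 (0.617) and Actg1 with Tmsb10 (0.605, and 0.376 as Pearson's r of log2 values). The loosest was Actg1 with Tmsb4x (0.268). Within sets 1, 2 and 3 the median pair had 0.607, 0.712 and 0.564, and all 10 pairs were positive in each set.

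The median pair was weaker within each class of at least 16 cells. Among Neurod6 cells the median pair had a rho of 0.250, the range was -0.215 to 0.512, and 9 of 10 pairs were positive. Among Sox2 cells the median was 0.267, the range was -0.0119 to 0.522, and 9 of 10 were positive. The closest pair was Tmsb4x with Tmsb10 (0.512) in Neurod6 cells and Tmsb4x with Tagln3 (0.522) in Sox2 cells. Actb with Actg1, the closest pair over all cells, had 0.215 in Neurod6 cells, 0.777 in other cells and 0.391 in Sox2 cells. Among other cells, a class that mixed cells of low and high score, the median pair had 0.360.

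**Figure D4:**
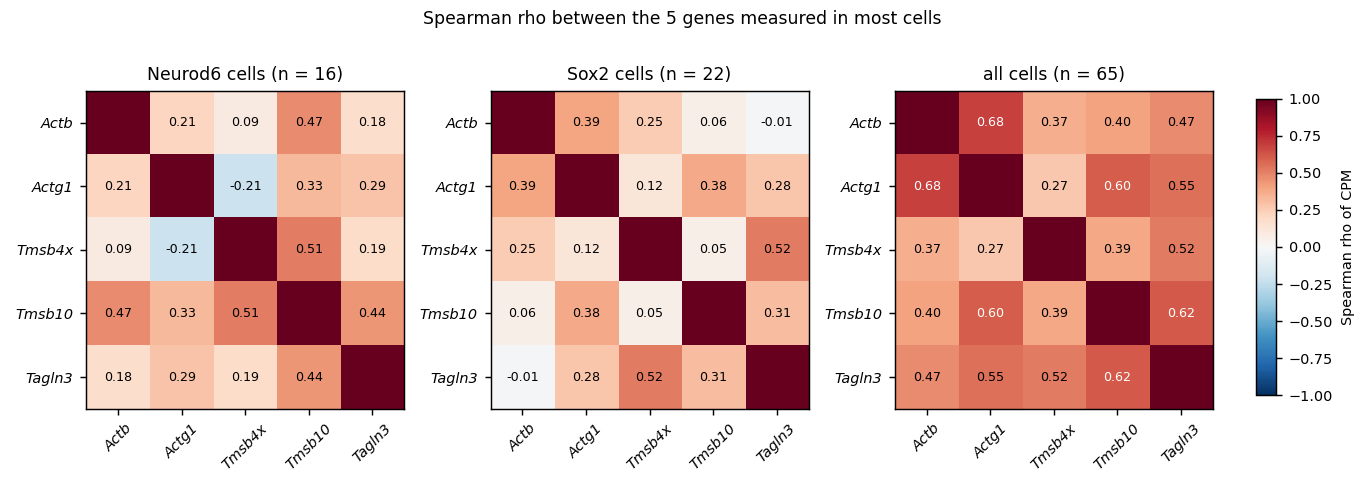
Spearman's rho of CPM between each pair of the 5 genes in the 16 Neurod6 cells, the 22 Sox2 cells and all 65 cells, on a colour scale from -1 to 1. All 10 pairs were positive over all cells (median 0.495), and the medians within the classes were 0.250 in Neurod6 cells and 0.267 in Sox2 cells.

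The genes whose levels ran most like each member over the 65 cells were taken as the 5 with the highest rho that were positive within every title set. For Actb they were the neuronal tubulin gene Tubb3 (0.764), the transcription factor gene Sox11 (0.745), the histone demethylase gene Kdm6b (0.712), the growth cone protein gene Dpysl2 (0.710) and the adaptor gene Ywhaz (0.709). For Actg1 they were Actb (0.680), the tubulin gene Tuba1a (0.637), the microtubule-binding gene Dcx (0.624), the kinesin gene Kif21b (0.616) and the reticulon gene Rtn1 (0.616). For Tmsb4x they were the surface protein gene Cd200 (0.558), the tubulin-binding gene Stmn1 (0.558), the semaphorin receptor gene Plxna4 (0.547), the serpin gene Serpini1 (0.544) and the RNA-binding gene Elavl4 (0.542). Some of these values differed between title sets. Within sets 1, 2 and 3 rho with Actb was 0.658, 0.731 and 0.701 for Tubb3 and 0.611, 0.676 and 0.696 for Sox11. It was 0.648, 0.253 and 0.702 for Kdm6b, 0.396, 0.687 and 0.745 for Dpysl2, and 0.492, 0.516 and 0.523 for Ywhaz. With Tmsb4x it was 0.289, 0.386 and 0.875 for Cd200, which averaged 24.6 CPM, and 0.611, 0.176 and 0.749 for Stmn1.

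For Tmsb10 they were the tubulin-binding genes Stmn2 (0.807) and Stmn3 (0.700), Tuba1a (0.700), Rtn1 (0.662) and the neurofilament-like gene Ina (0.657). For Tagln3 they were the glutathione transferase gene Gstm7 (0.634), Tuba1a (0.629), Stmn1 (0.625), Tmsb10 (0.617) and Dpysl3 (0.609), a relative of Dpysl2. Within sets 1, 2 and 3 rho of Tagln3 with Gstm7 was 0.695, 0.232 and 0.852. Tubb3, Dcx, Rtn1, Stmn2 and Stmn3 are among the neuron markers of the score. For Tagln2 the nearest gene was Tmem131 (0.578), followed by Sec22c, Tmem161b, Pam and Tmem216, and all of these rest on cells with a few reads of Tagln2.

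Progenitors also differ from neurons in dividing, so the genes were compared between mitotic cells and the rest among the 49 cells without Neurod6. The Neurod6 cells left out were not all without G2/M genes. The Neurod6 cell with 12666 CPM of Tmsb4x had 17 of these genes present. A cell was called mitotic when at least 13 of 26 G2/M genes were present, which held for 13 cells and not for 36. The word is a short name only, because these genes do not part cells in G2 from cells in mitosis. The mitotic cells also lay lower on the neuron minus progenitor score, with a median of -3.8 against -1.0 in the cells that were not mitotic. Of all tested genes 13.4% were at least 2-fold higher and 22.6% at least 2-fold lower in mitotic cells. Of the members 2 were 2-fold lower, Tmsb10 with a log2 ratio of -1.38 and Tagln3 with -1.41, and none was 2-fold higher. Median Tmsb10 was 520 CPM in mitotic cells and 960 in those not mitotic, and median Tagln3 was 32.4 CPM in mitotic cells and 356 in those not mitotic. Actb stood at -0.03, Actg1 at -0.58, Tmsb4x at -0.86 and Tagln2 at -0.27. The sign differed when mean log2(CPM + 1) was compared for Actg1, at 0.02, and for Tagln2, at 0.18. Sets 1, 2 and 3 held 8, 1 and 4 of the mitotic cells, and within them the log2 ratio was -0.88, -1.40 and -1.41 for Tmsb10 and -1.62, -6.46 and -0.69 for Tagln3. Tmsb4x stood at -0.18, -2.0 and -1.56 within the sets, and so was over 2-fold lower in sets 2 and 3. Actb stood at -0.16, -0.70 and -0.61, and Actg1 at -0.32, -1.45 and -0.19.

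Within the Sox2 cells, 11 of them mitotic and 11 not, the medians differed little, except for Tagln3. Median Tmsb10 was 545 CPM in mitotic Sox2 cells and 472 in Sox2 cells not mitotic, and median Actb was 5483 in mitotic and 6286 in those not mitotic. Median Actg1 was 2700 CPM in mitotic and 2477 in those not mitotic, and median Tmsb4x was 1849 in mitotic and 1767 in those not mitotic. Median Tagln3 was 1.02 CPM in mitotic Sox2 cells and 23.4 in those not mitotic, and the ranges overlapped for all 6 genes.

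The other genes of the actin pathway were described from 9 lists with 134 entries, of which 117 were measured and 90 had a mean of 10 CPM or more. In Neurod6 against Sox2 cells, 16 of the 90 were at least 2-fold higher and 19 at least 2-fold lower, with a median log2 ratio of -0.05, beside 18.9%, 25.1% and -0.15 over all genes. Both counts lay near the shares over all genes, so that nothing is read from them. Below, 8 of the lists are described, and their counts are to be read beside the same shares. A mean over cells can rest on 1 cell, so each named gene was also computed without the highest cell of each class, and the value is given where the 2-fold difference was lost, gained or turned. Leaving out 1 cell per class does not show where a mean rests on several high cells. Several of the genes named below had a median under 10 CPM in both classes, so that their means rest on a part of the cells.

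Among genes that nucleate branched filaments, the Arp2/3 complex and its activators, 5 of 18 tested were higher and none lower, with a median log2 ratio of 0.48. The complex subunit gene Arpc1a averaged 210 CPM in Neurod6 cells and 26.9 in Sox2 cells (log2 ratio 2.57), and the subunit gene Arpc3 95.9 in Neurod6 cells and 17.8 in Sox2 cells (1.93). Arpc3 was present in only 6 of 16 Neurod6 cells and 4 of 22 Sox2 cells, with medians of 0.164 and 0.0434 CPM. Cyfip2, of the WAVE regulatory complex, averaged 147 CPM in Neurod6 cells and 24.8 in Sox2 cells (2.18). Wasf3, a WAVE gene itself, stood at 1.42 through 1 cell and at -0.41 without the highest cells.

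Among capping and severing genes, 2 of 8 tested were higher and 1 lower (median 0.42). Tmod2, a neuronal tropomodulin that caps pointed filament ends, averaged 182 CPM in Neurod6 cells and 14 in Sox2 cells (3.0), and Add2, an adducin that caps barbed ends, 228 in Neurod6 cells and 32.4 in Sox2 cells (2.49). Its relative Add3 stood at -1.39 and at -0.30 without the highest cells, and the capping protein gene Capza2 at 0.99. Among formins and Ena/VASP genes, 1 of 6 was higher and 2 lower (median 0.30). The formin gene Fmnl2 stood at 1.68, Fmn2 at -1.62, Fhod3 at -2.41 (-0.01 without the highest cells), and Evl, of the Ena/VASP family, at 0.98 (1.73 without them). Fmnl2 was present in 7 Neurod6 cells and 5 Sox2 cells, and Fmn2 in 1 Neurod6 cell and 2 Sox2 cells.

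Of the genes for monomer binding and filament turnover, the nearest in role to the thymosins, 2 of 14 tested were higher and 1 lower (median -0.16). Dstn, a severing factor, averaged 752 CPM in Neurod6 cells and 349 in Sox2 cells (1.09, and 0.96 without cells under 1000000 reads). The coronin genes diverged, Coro1c at 1.40 and Coro1b at -1.46 (-0.94 without the shallow cells), and the cofilin kinase gene Limk2 stood at 0.91 (1.32 without the highest cells). Of the other transgelin and calponin genes only Cnn3 was measured, at -0.11. Of the actin isoforms and actin-related genes, 1 of 4 was higher and 1 lower (median 0.29). Actl6b, a neuronal subunit of a chromatin remodelling complex, stood at 1.51 (0.73 without the highest cells). Its progenitor counterpart Actl6a stood at 0.16 (-0.11 without them), with medians of 12.1 CPM in Neurod6 cells and 180 in Sox2 cells. The dynactin gene Actr1a stood at 0.41 and its relative Actr1b at -1.28.

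Genes of adhesion, crosslinking and contraction included several whose mean was lower in Neurod6 cells. Among bundling, crosslinking and membrane linker genes, 3 of 19 tested were higher and 8 lower (median -0.46). Zyx, a focal adhesion gene, averaged 8.52 CPM in Neurod6 cells and 189 in Sox2 cells (-3.42). Ezr, which links filaments to the membrane, averaged 16.9 CPM in Neurod6 cells and 154 in Sox2 cells (-2.61), and the crosslinker gene Actn4 stood at -1.94. The medians in Neurod6 and Sox2 cells were 0 and 0.474 CPM for Zyx, 0.0406 and 0.491 for Ezr, and 0 and 0.0512 for Actn4. Zyx and Ezr were each present in 3 of 16 Neurod6 cells and 9 of 22 Sox2 cells, and the highest Sox2 cell had 2344 CPM of Zyx. The growth cone gene Gap43, also a neuron marker of the score, averaged 527 CPM in Neurod6 cells and 39.1 in Sox2 cells (3.45).

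Of the tropomyosin and nonmuscle myosin II genes, none of 8 was higher and 3 were lower (median -0.57). The myosin heavy chain gene Myh9 averaged 9.30 CPM in Neurod6 cells and 96.3 in Sox2 cells (-2.46). Its medians were alike, at 5.40 CPM in Neurod6 cells and 6.75 in Sox2 cells, and its highest Sox2 cell had 1016 CPM. The tropomyosin gene Tpm4 averaged 192 CPM in Neurod6 cells and 612 in Sox2 cells (-1.62). Tpm1 stood at -1.64, with medians of 0 CPM in Neurod6 cells and 0.0931 in Sox2 cells, and the light chain gene Myl12a at -0.83.

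Actb is often used as a reference gene, so 13 genes commonly used in that way were set beside it. None was 2-fold higher in Neurod6 cells and 2 were 2-fold lower (median -0.35), beside 18.9%, 25.1% and -0.15 over all genes. The 2 were Sdha at -1.40 and Gapdh at -1.12 (-0.77 with scran size factors), while Gusb stood at -0.87 and Ywhaz at 0.87. Actb, at 1.24, lay above each of these 13 genes.

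**Figure D5:**
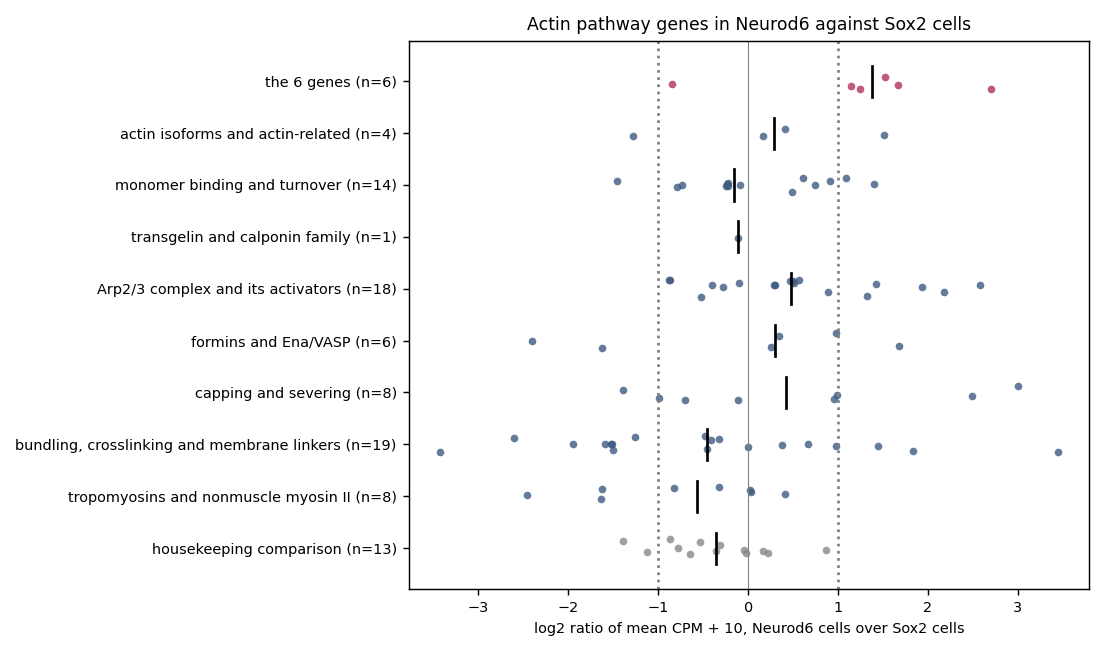
Log2 ratio of mean CPM + 10 in Neurod6 over Sox2 cells, with 1 point per gene, for the 6 genes, 8 of the 9 actin lists and the reference genes. Vertical bars mark list medians and dotted lines a 2-fold difference; 5 of the 6 genes lay beyond the upper line, while the medians of these lists lay between -0.57 and 0.48.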

How the data were processed

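Single-cell RNA-seq of 65 cells was analysed. The values are raw read counts per gene as deposited by the authors. Per the submitters' processing notes TopHat2, HTSeq and mm9 were used (no versions or roles), and the annotation was not given in the sources used here. Depth varied between 85338 and 32130629 reads per cell, so that 1 read is worth most in the shallowest cells.

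Counts were divided by each cell's total and given as CPM. Class, score and mean thresholds are stated with the results. No test was made, because pooled embryos of 1 group give 1 sample. The 6 genes and all lists were chosen with earlier results of these data known. Text names the members, up to 4 genes per actin list with the largest absolute log2 ratio, the 5 nearest genes per member and markers by list. Alternatives covered scaling (scran 1.30.0 in R 4.3.3), pseudocount, filter, fold, class threshold, title set and shallow cells. Proteins were not compared, and 1 actin list is counted in the totals but not reported here on its own. Code ran in Python 3.11.15 with pandas 2.3.3 and scipy 1.17.1, and was tested on simulated data.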

Additional observations from a re-analysis of the deposited data

How the results depend on the processing

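The difference between Neurod6 and Sox2 cells in mean log2(CPM + 1) stayed within 1 SD across cells in 77 of 78 alternatives over the 6 genes, among them scran scaling, which put the median gene's log2 ratio at -0.11 against -0.15. The exception was Actg1 within title set 2 (2.26). The sign turned for Tagln2 alone, within sets 1 (0.09) and 2 (0.06), against -0.45 over all sets. The SD is a wide bound, at 1.05 for Tmsb4x, 1.38 for Tagln2 and 3.52 for Tagln3. The turned signs of Tagln2 lay within it. So did Tmsb4x in set 2, at 0.63 against 1.46 over all sets. The count of 77 therefore does not show that the differences kept their size, or for Tagln2 their sign. The Spearman coefficient with the neuron minus progenitor score moved by more than its SD between title sets in 11 of 60: for Actb without cells under 1000000 reads (0.617), centred within title sets (0.689) and within sets 1, 2 and 3 (0.706, 0.681 and 0.619); for Actg1 as Pearson's r (0.553) and within set 2 (0.802); for Tmsb4x within set 3 (0.764); for Tagln3 within set 2 (0.912); and for Tagln2 as Pearson's r (-0.279) and within set 2 (0.168). Of 135 pair correlations 37 moved. The actin lists gave 27 of 90 genes higher at 1.5-fold (28.1% of all genes), 6 higher (6.43%) and 4 lower (8.18%) at 4-fold, and 8 of 67 lower with a mean of 50 CPM or more (20.7%). Wasf3 reversed (-0.41) without the highest cell of each class, and its 1 high cell is left out there. Other causes were not tested. Leaving out highest cells, mean-per-set values, the cell with most meningeal reads and Sox2 cells alone were chosen after seeing the data. No paired analysis was possible because all cells belong to 1 group. Correlations of Tagln2 rest on few reads, with 1 to 3 in most cells that have any.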

Other observations

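The microtubule side of the neuronal cytoskeleton was described with a list of 10 genes chosen with earlier results known. In Neurod6 against Sox2 cells 8 were at least 2-fold higher and 1 lower, with a median log2 ratio of 2.14, beside 18.9%, 25.1% and -0.15 over all genes. The stathmin gene Stmn2 averaged 1894 CPM in Neurod6 cells and 76.1 in Sox2 cells, and the microtubule-associated gene Map1b 5377 in Neurod6 cells and 965 in Sox2 cells. The alpha-tubulin genes diverged, Tuba1a at 1.81 and Tuba1b at -2.08, unlike Actb and Actg1, which were both higher.

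A few cells stood apart in the 6 genes. An other cell of set 2 with 823472 reads and a score of 5.72 had the highest Actg1 (30107 CPM), Tmsb10 (5995 CPM) and Tagln3 (4910 CPM) of all cells. An other cell of set 3 had 339 CPM of Actb and 40.6 CPM of Actg1, the lowest of all 65, beside 5406 CPM of Tmsb4x. Another cell of set 3 held 19800 CPM of mural and meningeal markers, 10018 of them Lum, with 5656 CPM of Actb, 4023 of Actg1, 840 of Tmsb4x, 1939 of Tmsb10, 0.0744 of Tagln2 and 0.447 of Tagln3.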
